A study of Mus musculus with 12 samples.

Results

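The arrays were read for 36 genes of glucose breakdown and of the response to low oxygen, a list of glucose transporters, glycolytic enzymes, targets of the hypoxia-inducible factors (HIFs) and the sensors that govern those factors. A gene counted as measured where at least 1 probe set of the array carried its symbol and no other, which held for 33 of the 36 genes through 73 probe sets, among 18193 measured genes and 45037 probe sets in all. Gpi1 and Eno1 were not analysed here, and each of the 3 probe sets of Bnip3l carried several symbols, so none was assigned to it.

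In glycolysis, glucose enters the cell through facilitative transporters, is phosphorylated and split, and leaves the pathway as pyruvate, which is either oxidised in mitochondria or reduced to lactate and exported. When oxygen is plentiful, prolyl hydroxylases of the Egln family mark the alpha subunits Hif1a and Epas1 for destruction, and when oxygen is scarce the subunits persist and raise transcription of glycolytic enzymes, lactate and proton handling genes, angiogenic factors and the hydroxylases themselves. Pancreatic ductal tumors are known for poor perfusion and for glycolytic metabolism.

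RNA came from 4 groups of cultured mouse pancreatic cancer cells with 3 arrays each, 12 arrays in all. The mt-CCs were primary cancer cells from tumors of mice that carried the Pdx1-Cre transgene and a heterozygous conditional allele, LSL-Trp53 R172H/+. The fl-CCs, labelled Trp53fl (null), came from tumors of mice with the same transgene and LSL-Trp53 fl/+ in place of the point mutation. The other groups were fl-CCs that carried the human mutant p53 R175H (fl-CCs + p53 R175H) and fl-CCs that carried the empty vector (fl-CCs + EV), and only these were kept in medium with 0.6 mg/ml G418. All cells therefore share the Cre, which the Pdx1 promoter drives in pancreatic epithelium, and all were harvested at 60% confluency from cultures for which no low-oxygen step is described. Each group is 1 cell line, so the mt-CCs differ from the fl-CCs in their tumor of origin as well as in Trp53, and these cannot be told apart. The methods describe biological triplicates without naming what separated them, so the spread behind each p is that of 3 samples of a line and not of tumors. Values are log2 intensities, and a difference of 1 on that scale is a 2-fold change in signal. A value followed by ± is a log2 difference with its SE, the first-named group minus the second. An array signal from a culture cannot tell fewer expressing cells from less RNA per cell.

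Replicate arrays correlated with r of 0.994 to 0.9962 over all tested probe sets. The mt-CC arrays correlated with the others at 0.9594 to 0.9625, and the 3 fl-CC-derived groups with each other at 0.9833 to 0.9903. Trp53 was not analysed here, so the p53 status in the labels was not checked against its own transcript. The keratins Krt8, Krt18 and Krt19 were between 12.94 and 13.75 as group means in all 4 groups. Krt7, another keratin of the list, averaged 8.52 in mt-CCs, 12.96 in fl-CCs, 12.02 with p53 R175H and 13.06 with EV. Of the 10 epithelial markers 8 were lower in mt-CCs than in fl-CCs (80%, where 17.7% of all genes were lower) and 0 were higher (18.3% of all genes). The 8 include Cldn4, which was under a log2 value of 5 in every array. Among the lower ones Muc1 averaged 5.74 in mt-CCs and 11.21 in fl-CCs, and Epcam 6.88 and 9.78. The log2 of the sum of the 10 markers ran from 15.20 to 15.28 in mt-CC arrays and from 15.91 to 15.96 in fl-CC arrays. Of 12 fibroblast markers 6 were higher in mt-CCs (50%, where 18.3% of all genes were higher), with Col3a1 at 9.50 in mt-CCs and 3.48 in fl-CCs. Of these 6, Col1a2 and Dcn averaged only 4.67 and 4.96 in mt-CCs. Acta2 was lower (-0.60, limma adjusted p = 0.0177), a share of 8.33% where 17.7% of all genes were lower. Fap, Postn, Pdpn, Thy1 and Lum were under a log2 value of 5 in every array. The log2 of the summed fibroblast markers ran from 10.61 to 10.66 in mt-CC arrays and from 8.08 to 8.46 in fl-CC arrays, and 6 of 7 endothelial markers stayed under 5 in every array of every group. So did 5 of 8 macrophage markers, but Cd68 averaged 7.66 in mt-CCs and 5.75 in fl-CCs (adjusted p = 1.48e-07), and Cd14 averaged 9.67 in mt-CCs and 9.94 in fl-CCs (adjusted p = 0.0446). In the pair of transfected lines, p53 R175H and EV, 1 of 12 fibroblast markers, Acta2, was higher with p53 R175H (0.92, limma adjusted p = 0.00226). That is 8.33%, where 13% of all genes were higher. Cd14 was higher too (10.02 with p53 R175H and 9.57 with EV, adjusted p = 0.00471). Of the 10 epithelial markers 2 were higher (20%, where 13% of all genes were) and 3 lower (30%, where 12.1% were). The part of these marker differences in the results was not tested.

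The comparison of mt-CCs with fl-CCs asks how tumor cells with the mutant protein differ from cells without p53. The comparison of fl-CCs + p53 R175H with fl-CCs + EV asks how null cells given the mutant differ from null cells given the vector. Each transfected group is also 1 line, so other differences between the 2 lines cannot be told apart from the mutant. With p53 R175H the called genes of the list all moved in 1 direction. Of the 33 genes, 21 were lower in fl-CCs + p53 R175H than in fl-CCs + EV at an adjusted p of at most 0.05 (63.6%, where 12.1% of all genes were lower), and 0 were higher (13% of all genes were higher). The median difference of the 33 genes was -0.62, against -0.01 over all genes. In mt-CCs the picture was mixed. Against fl-CCs 14 of the 33 genes were lower (42.4%, where 17.7% of all genes were lower) and 6 were higher (18.2%, where 18.3% of all genes were higher), with a median of -0.20. The difference between the 2 comparisons was itself past the threshold for 19 genes, 16 of them in the direction of a higher value for mt-CCs (48.5%, where 16.1% of all genes were) and 3 in the other (9.09%, where 15.9% were). Every p here comes from limma and was adjusted over all 45037 probe sets. The 0 higher genes with p53 R175H were also 0 in every alternative fit, and 0 of the 33 genes had an unadjusted p under 0.05 in that direction.

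**Figure D1:**
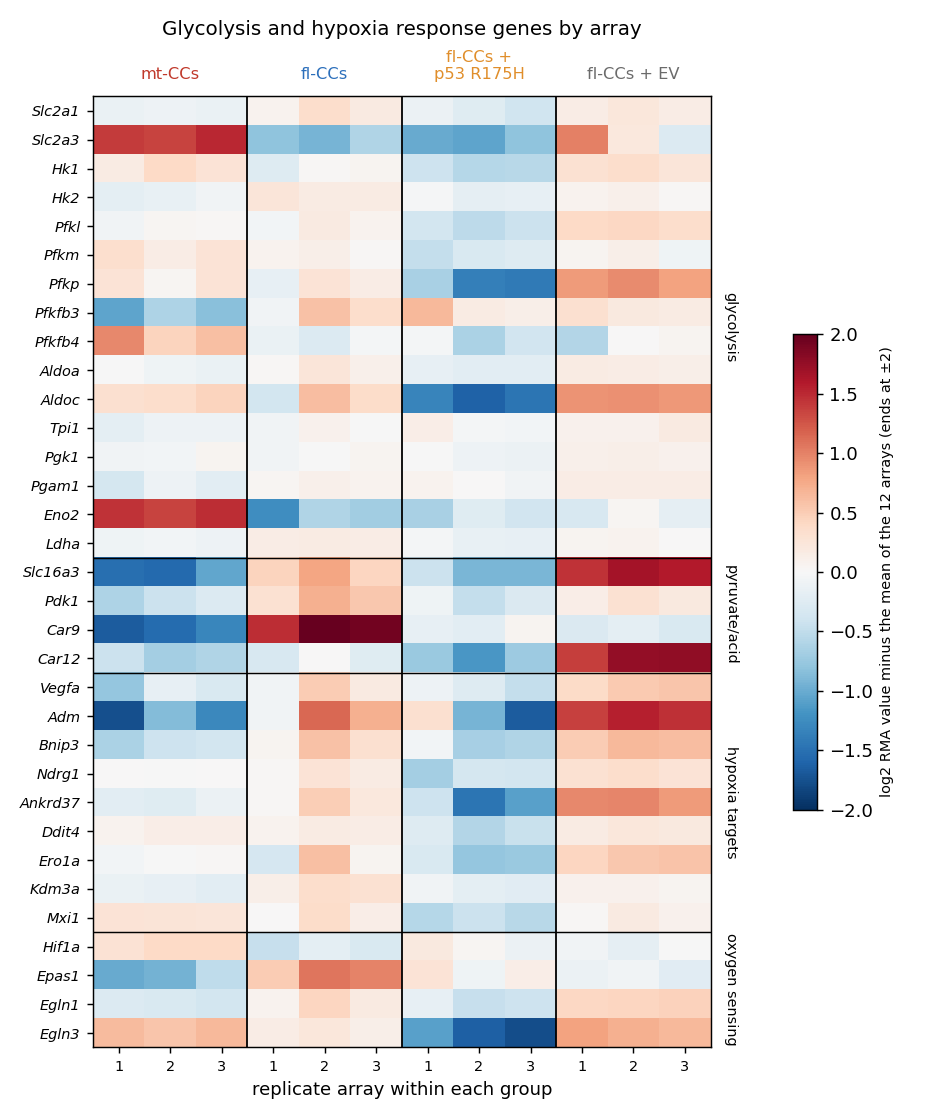
Heat map of the 33 measured genes (rows, grouped by role) in the 12 arrays (columns, 3 per group), coloured by the log2 RMA value minus the gene's mean over the 12 arrays, with colours ending at ±2. The fl-CCs + p53 R175H columns hold the lowest group mean for 19 genes and the mt-CC columns for 12, while fl-CCs + EV holds the highest for 19. These counts were not made for all genes.

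Across the 4 groups the highest mean was in fl-CCs + EV for 19 genes, in fl-CCs for 7, in mt-CCs for 6 and in fl-CCs + p53 R175H for 1, which was Pfkfb3. The lowest was in fl-CCs + p53 R175H for 19 genes, in mt-CCs for 12 and in fl-CCs for 2. These counts of highest and lowest means were not made for all genes, so no share stands beside them. Counted by arrays that did not overlap, every p53 R175H array was below every EV array for 26 of the 33 genes (where 22% of all genes were) and above for 0 (21.5% of all genes). Every mt-CC array was below every fl-CC array for 19 (23.8% of all genes) and above for 7 (23.7% of all genes). For 21 of the 33 genes every p53 R175H array lay below every array of both fl-CCs and fl-CCs + EV (63.6%, where 11% of all genes did).

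Joining the 2 mutant p53 comparisons, which share no arrays, 7 of the 33 genes were lower with mutant p53 in both (3.8% of all genes were). They were Slc2a1, Slc16a3, Pdk1, Vegfa, Adm, Bnip3 and Egln1, 7 of the 14 genes lower in mt-CCs and 7 of the 21 lower with p53 R175H. A further 3 genes, Slc2a3, Hk1 and Egln3, were higher in mt-CCs and lower with p53 R175H (3.32% of all genes were). A set of 11 genes was lower with p53 R175H without passing the threshold in mt-CCs (5% of all genes). The other 7 that were lower in mt-CCs (Hk2, Pfkfb3, Pgam1, Ldha, Car9, Kdm3a and Epas1) did not pass it with p53 R175H (10.7% of all genes). A last 3 genes, Pfkfb4, Eno2 and Hif1a, were higher in mt-CCs and did not pass with p53 R175H, a share not counted over all genes. Tpi1 and Pgk1 passed in neither (53.4% of all genes), although 1 of the 3 probe sets of Tpi1 was lower in mt-CCs (-0.22, adjusted p = 0.0453) and another with p53 R175H (-0.34, adjusted p = 0.0174).

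**Figure D2:**
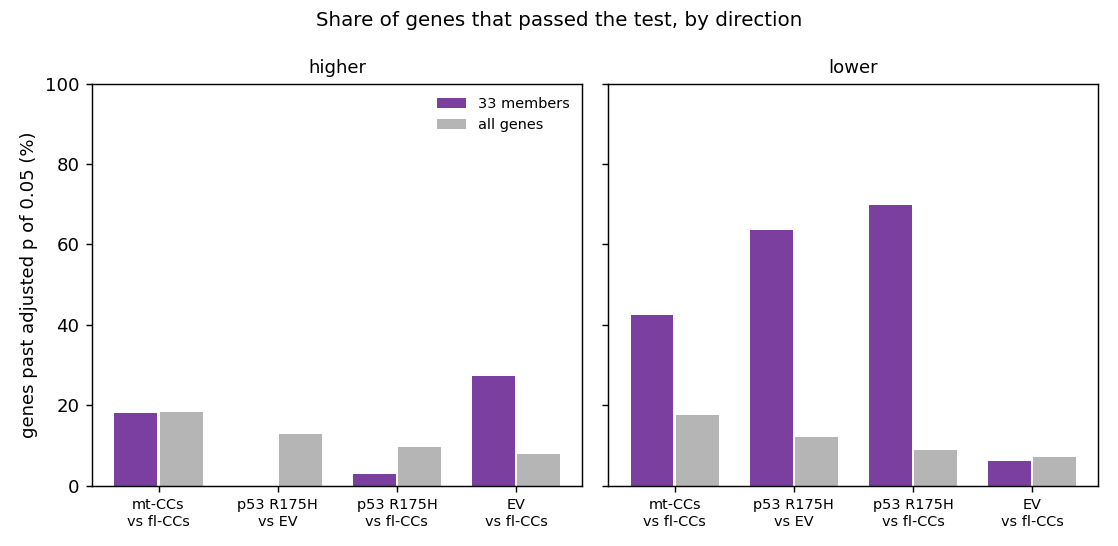
Bars give the percentage of the 33 genes (purple) and of all 18193 genes (grey) that were higher (left) or lower (right) at an adjusted p of at most 0.05 in each of 4 comparisons, named below the bars with the mutant or vector group first. Lower calls reached 63.6% of the 33 genes with p53 R175H against EV, where all genes reached 12.1%.

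The glucose transporters came first in the pathway and differed from each other. Slc2a1, the ubiquitous basal transporter, had values of 12.10, 12.14 and 12.11 in mt-CCs, against 12.32, 12.60 and 12.42 in fl-CCs. With p53 R175H it had 12.12, 12.003 and 11.85, against 12.39, 12.47 and 12.40 with EV. In each pair the mutant p53 arrays lay entirely below the others. The shifts were small, -0.33 ± 0.10 (SE, adjusted p = 0.0206) in mt-CCs and -0.43 ± 0.10 (adjusted p = 0.00724) with p53 R175H, by limma. The first of them was lost without mt-CC replicate 1 (adjusted p = 0.0502), mt-CC replicate 3 (0.0519) or fl-CC replicate 2 (0.092).

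Slc2a3, the high-affinity transporter of neurons, had values of 6.12, 6.07 and 6.23 in mt-CCs, against 3.92, 3.80 and 4.13 in fl-CCs. It had 3.71, 3.67 and 3.91 with p53 R175H, against 5.73, 4.93 and 4.45 with EV. All fl-CC and p53 R175H arrays were under 5, the level taken here as near background, and so were 2 of the 3 EV arrays. The excess of mt-CCs over fl-CCs was therefore at least 1.14 (limma adjusted p = 1.85e-05) and the deficit of p53 R175H relative to EV at least 0.04 (adjusted p = 0.00265), where EV replicate 1 was the brightest. The values come from 1 of 4 probe sets, whose name ends in _s_at and marks possible matches to several transcripts. A second, of the _x_at kind, was also called in both comparisons, and the other two probe sets were under 5 in every array.

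At the hexokinase step, Hk2, the inducible isoform of many tumors, had values of 10.36, 10.40 and 10.48 in mt-CCs, against 10.79, 10.71 and 10.71 in fl-CCs. With p53 R175H the values were 10.53, 10.36 and 10.39, against 10.62, 10.65 and 10.58 with EV. No array overlapped in either pair, but the size was -0.32 ± 0.08 in mt-CCs (limma adjusted p = 0.00805) and -0.19 ± 0.08 with p53 R175H, which did not pass (adjusted p = 0.125). Hk1, the constitutive isoform, differed by 0.34 ± 0.10 in mt-CCs (adjusted p = 0.0277) and by -0.81 ± 0.10 with p53 R175H (adjusted p = 0.000182). The mt-CC call of Hk1 was lost without mt-CC replicate 2 (adjusted p = 0.103), mt-CC replicate 3 (0.0594) or fl-CC replicate 1 (0.102).

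The 3 phosphofructokinase subunits, which form the committed enzyme of the pathway, were all lower with p53 R175H and in none of them did mt-CCs differ from fl-CCs past the threshold. Pfkp, the platelet-type subunit, had values of 9.28, 8.55 and 8.51 with p53 R175H, against 10.78, 10.87 and 10.73 with EV. It had 10.19, 9.96 and 10.21 in mt-CCs, against 9.76, 10.20 and 10.07 in fl-CCs. The p53 R175H arrays lay apart below all other 9, and the mt-CC and fl-CC arrays overlapped. Pfkp differed by -2.01 ± 0.19 with p53 R175H (a fold of 0.248, limma adjusted p = 1.47e-05) and by 0.11 ± 0.19 in mt-CCs (adjusted p = 0.723). All 3 probe sets of Pfkp were lower with p53 R175H, by -2.28 to -0.9994. The liver-type Pfkl and the muscle-type Pfkm shifted less with p53 R175H, by -0.82 ± 0.09 (adjusted p = 3.68e-05) and -0.37 ± 0.09 (adjusted p = 0.0136). The call of Pfkm was lost without EV replicate 2 (adjusted p = 0.0582) or p53 R175H replicate 1 (0.0575).

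The bifunctional enzymes Pfkfb3 and Pfkfb4 set the level of the sugar phosphate that activates phosphofructokinase, and in mt-CCs they moved in opposite directions. Pfkfb3 had values of 7.66, 8.10 and 7.87 in mt-CCs, against 8.65, 9.29 and 9.07 in fl-CCs. With p53 R175H it had 9.36, 8.88 and 8.83, against 9.03, 8.90 and 8.88 with EV. The mt-CC arrays were the lowest of the 12 and the other 3 groups overlapped. Pfkfb3 was lower in mt-CCs at -1.12 ± 0.18 (limma adjusted p = 0.000415) and differed by 0.08 ± 0.18 with p53 R175H (adjusted p = 0.82). Pfkfb4 was higher in mt-CCs, at 0.82 ± 0.20 (adjusted p = 0.00632), and differed by -0.18 ± 0.20 with p53 R175H (adjusted p = 0.613).

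Among the aldolases, Aldoc, the brain-type isoform, gave the larger difference with p53 R175H. It had values of 9.53, 9.23 and 9.39 with p53 R175H, against 11.74, 11.76 and 11.71 with EV. In mt-CCs the values were 11.17, 11.19 and 11.29, against 10.48, 11.47 and 11.22 in fl-CCs. Every p53 R175H array was below the other 9, and fl-CC replicate 1 stood below the rest of its group. The difference with p53 R175H was -2.35 ± 0.19, a fold of 0.196 (limma adjusted p = 5.61e-06), and both probe sets of the gene were lower, the second by -2.94. Aldoc differed by 0.16 ± 0.19 in mt-CCs (adjusted p = 0.596). Aldoa, the muscle-type aldolase of most growing cells, was lower at -0.33 ± 0.08 with p53 R175H (adjusted p = 0.011) and differed by -0.20 ± 0.08 in mt-CCs (adjusted p = 0.0848).

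Of the later steps, Eno2, the neuronal enolase, was the one that stood out in mt-CCs. It had values of 8.26, 8.18 and 8.29 in mt-CCs, against 5.57, 6.22 and 6.13 in fl-CCs. It had 6.18, 6.57 and 6.45 with p53 R175H, against 6.51, 6.87 and 6.64 with EV. The 3 mt-CC arrays were above all other 9, and the p53 R175H and EV arrays overlapped. Eno2 was higher in mt-CCs by 2.27 ± 0.16, a fold of 4.83 (limma adjusted p = 4.48e-07), and differed by -0.27 ± 0.16 with p53 R175H (adjusted p = 0.309).

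The trunk enzymes Tpi1, Pgk1 and Pgam1, which carry out the triose isomerase, phosphoglycerate kinase and phosphoglycerate mutase steps, kept to narrow ranges. Tpi1 lay between 12.90 and 13.28, Pgk1 between 13.25 and 13.48 and Pgam1 between 12.74 and 13.25 over the 12 arrays, where the brightest probe set of the whole array reached 14.31. Pgam1 was lower in mt-CCs at -0.30 ± 0.08 (limma adjusted p = 0.0183), a call lost without mt-CC replicate 1 (adjusted p = 0.0661), fl-CC replicate 2 (0.061) or fl-CC replicate 3 (0.0504). The 95% interval of the Pgk1 difference ran from -0.19 to 0.15 in mt-CCs and from -0.34 to -0.01 with p53 R175H. For Tpi1 the intervals were -0.32 to 0.05 and -0.29 to 0.08.

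Ldha, the subunit of lactate dehydrogenase that favours lactate, had values of 13.21, 13.24 and 13.19 in mt-CCs, against 13.45, 13.46 and 13.44 in fl-CCs. It had 13.26, 13.15 and 13.13 with p53 R175H, against 13.35, 13.37 and 13.31 with EV. The groups of each pair did not overlap. The difference was -0.23 ± 0.07 in mt-CCs (limma adjusted p = 0.0288), lost without any 1 of the 6 arrays compared (adjusted p of 0.0513 to 0.0756), and -0.16 ± 0.07 with p53 R175H (adjusted p = 0.16). Over the 16 measured glycolytic genes together, 8 were lower (50%, against 12.1% of all genes) and 0 higher (against 13%) with p53 R175H, with a median of -0.30. In mt-CCs 5 were lower (31.2%, against 17.7% of all genes) and 4 higher (25%, against 18.3%), with a median of -0.05.

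**Figure D3:**
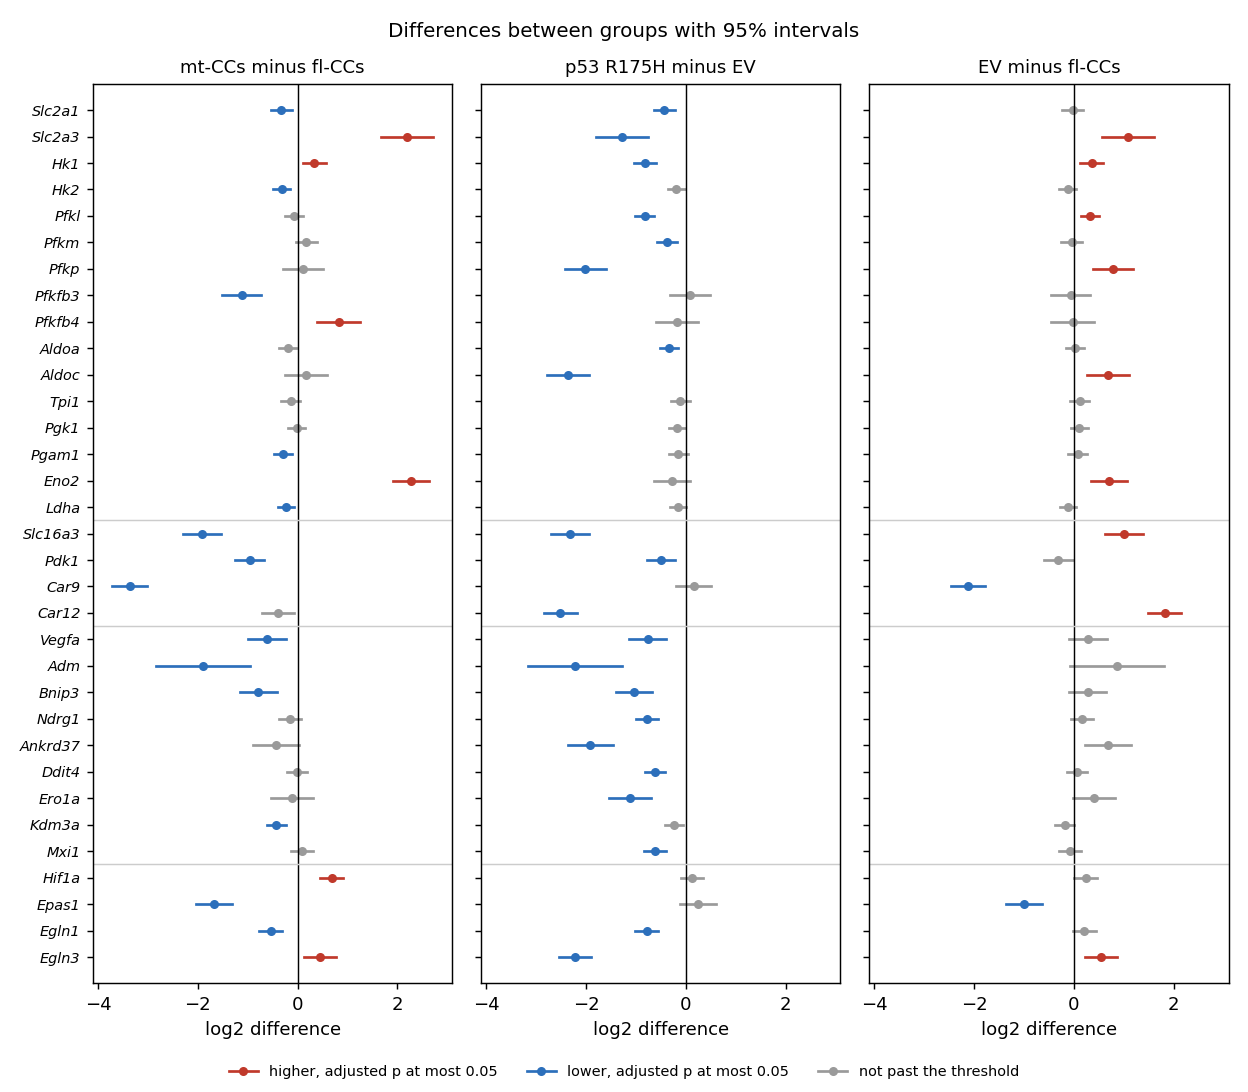
Log2 differences of the 33 genes (rows, in the order of the heat map, with lines between the roles) for mt-CCs minus fl-CCs, p53 R175H minus EV and EV minus fl-CCs, with 95% intervals from the limma fit. Red and blue mark genes that were higher or lower at an adjusted p of at most 0.05. The middle panel holds 21 blue genes and 0 red, and the left panel holds 14 blue and 6 red.

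The genes that decide what becomes of pyruvate and acid gave the largest measured reduction of the list in each comparison, Car9 in mt-CCs and Car12 with p53 R175H. Slc16a3, the lactate exporter of glycolytic cells, had values of 7.36, 7.31 and 7.83 in mt-CCs, against 9.31, 9.66 and 9.30 in fl-CCs. With p53 R175H it had 8.44, 7.95 and 7.94, against 10.31, 10.53 and 10.45 with EV. Each mutant group lay below its comparison group without overlap. Slc16a3 was lower at -1.92 ± 0.17 in mt-CCs (limma adjusted p = 3.01e-06) and at -2.32 ± 0.17 with p53 R175H (adjusted p = 2.23e-06), folds of 0.265 and 0.201. The 2 differences differed by 0.40 ± 0.24 (adjusted p = 0.275, 95% interval -0.13 to 0.93).

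Pdk1, the kinase that holds pyruvate dehydrogenase inactive and keeps pyruvate out of the mitochondrial cycle, had values of 10.77, 10.95 and 11.11 in mt-CCs, against 11.70, 12.09 and 11.92 in fl-CCs. It had 11.30, 10.91 and 11.10 with p53 R175H, against 11.52, 11.68 and 11.58 with EV. There was no overlap in either pair. The gene was lower in mt-CCs at -0.96 ± 0.13 (limma adjusted p = 0.000121), with 3 of its 4 probe sets called. With p53 R175H it was lower at -0.49 ± 0.13 (adjusted p = 0.0192) in 1 of 4 probe sets, and this call was lost without EV replicate 2 (adjusted p = 0.0698), p53 R175H replicate 2 (0.0816) or p53 R175H replicate 3 (0.0535).

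The membrane carbonic anhydrases Car9 and Car12, which hydrate carbon dioxide outside the cell and so buffer the pH of cells that export acid, went separate ways. Car9 had values of 4.86, 4.97 and 5.21 in mt-CCs, against 7.98, 8.69 and 8.45 in fl-CCs. It had 6.35, 6.31 and 6.57 with p53 R175H, against 6.22, 6.32 and 6.21 with EV. The mt-CC arrays, 2 of them under 5, were the lowest, the fl-CC arrays the highest, and the p53 R175H and EV arrays overlapped between them. Car9 was lower in mt-CCs at -3.36 ± 0.16 (limma adjusted p = 8.54e-09), where the mt-CC mean of 5.01 lay at the near-background level, so no fold is given. Car9 differed by 0.16 ± 0.16 with p53 R175H (adjusted p = 0.58). It was also lower in fl-CCs + EV than in untransfected fl-CCs, at -2.12 ± 0.16 (adjusted p = 6.44e-06). The p53 R175H cells were likewise lower than untransfected fl-CCs, at -1.96 ± 0.16 (adjusted p = 1.24e-05).

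Car12 had values of 6.38, 5.96 and 6.40 with p53 R175H, against 8.50, 8.88 and 8.89 with EV. It had 6.69, 6.44 and 6.51 in mt-CCs, against 6.80, 7.13 and 6.88 in fl-CCs. Here the EV arrays stood above all other 9. The gene was lower with p53 R175H at -2.51 ± 0.15, a fold of 0.175 (limma adjusted p = 4.34e-07), and differed by -0.39 ± 0.15 in mt-CCs (adjusted p = 0.0687). EV exceeded untransfected fl-CCs by 1.82 ± 0.15 (adjusted p = 1.28e-05), so against untransfected fl-CCs the p53 R175H cells were lower at -0.69 ± 0.15 (adjusted p = 0.00863).

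**Figure D4:**
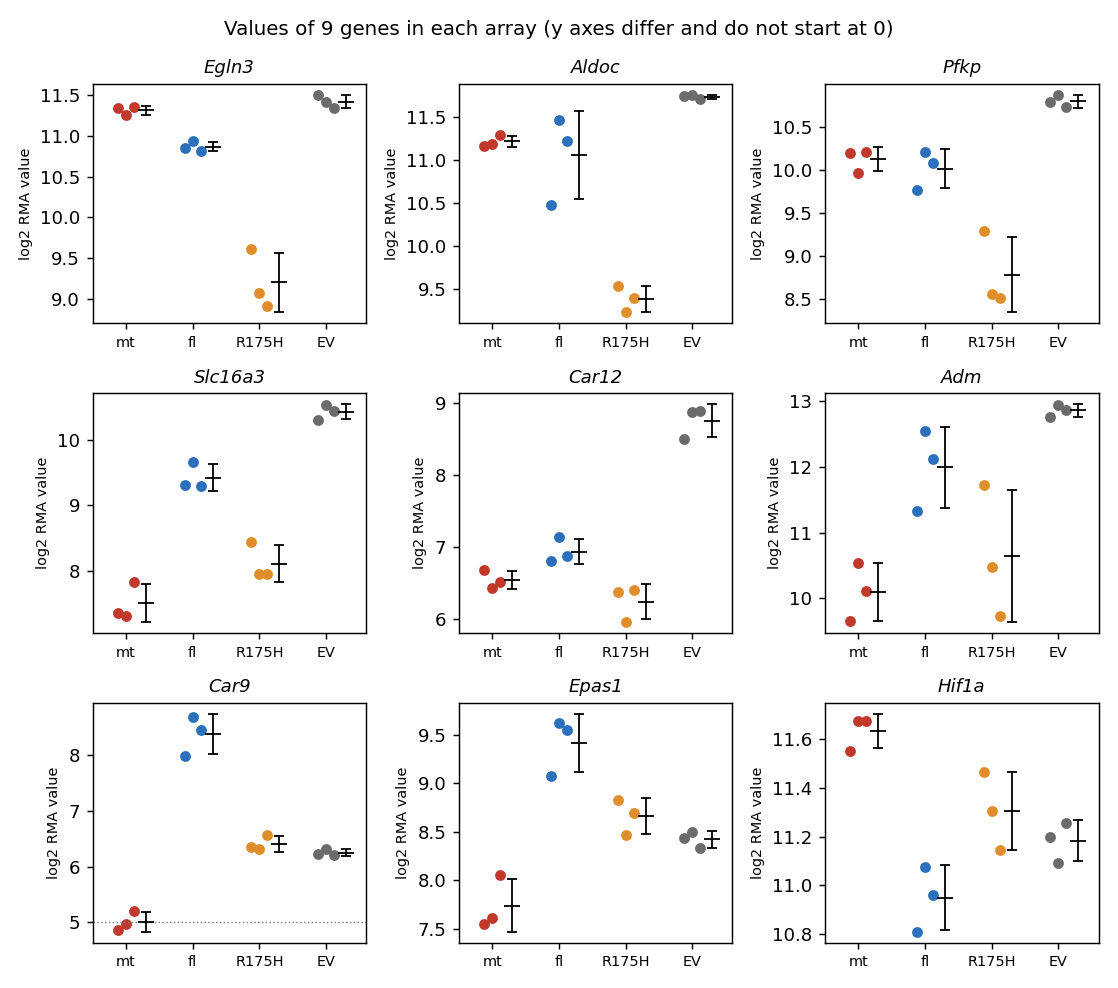
Log2 RMA values of 9 genes in each array (points) for mt-CCs, fl-CCs, fl-CCs + p53 R175H and fl-CCs + EV, with the mean and SD of the 3 arrays at the right of each group. The y axes differ between genes and do not start at 0, and the dotted line in the Car9 panel marks the near-background value of 5. In Egln3, Aldoc and Pfkp the p53 R175H points lie below those of every other group, whereas in Car9 and Epas1 the mt-CC points are lowest.

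The effector genes of the hypoxia response were lower in 8 of 9 measured cases with p53 R175H (12.1% of all genes) and in 4 of 9 in mt-CCs (17.7% of all genes). In either comparison 0 were higher (also 0 at an unadjusted p under 0.05), where 13% of all genes were higher with p53 R175H and 18.3% in mt-CCs. Vegfa, the main angiogenic growth factor, had values of 9.07, 9.67 and 9.52 in mt-CCs, against 9.76, 10.33 and 10.02 in fl-CCs. It had 9.72, 9.57 and 9.36 with p53 R175H, against 10.22, 10.35 and 10.38 with EV. Neither pair overlapped, although replicates within mt-CCs and fl-CCs spread widely. Vegfa was lower at -0.62 ± 0.17 in mt-CCs (limma adjusted p = 0.0159) and at -0.76 ± 0.17 with p53 R175H (adjusted p = 0.00775). The second probe set was also lower with p53 R175H (-0.82), and was at 0.08 in mt-CCs (adjusted p = 0.682). The mt-CC call was lost without mt-CC replicate 1 (adjusted p = 0.0639) or fl-CC replicate 2 (0.0715).

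Adm, which encodes the vasodilator peptide adrenomedullin, had values of 9.65, 10.54 and 10.11 in mt-CCs, against 11.33, 12.55 and 12.11 in fl-CCs. It had 11.73, 10.47 and 9.73 with p53 R175H, against 12.76, 12.95 and 12.86 with EV. The pairs did not overlap, but the p53 R175H arrays spread with an SD of 1.01 and the EV arrays with one of 0.09. Adm was lower at -1.90 ± 0.43 in mt-CCs (limma adjusted p = 0.0049) and at -2.22 ± 0.43 with p53 R175H (adjusted p = 0.00323). The probe set is of the _x_at kind. The other was under 5 in every mt-CC and p53 R175H array and passed in neither comparison (adjusted p = 0.0889 in mt-CCs and 0.0547 with p53 R175H).

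Bnip3, a mitochondrial outer membrane protein that promotes mitophagy, had values of 10.98, 11.20 and 11.24 in mt-CCs, against 11.66, 12.20 and 11.93 in fl-CCs. It had 11.55, 10.95 and 11.02 with p53 R175H, against 12.12, 12.26 and 12.23 with EV. Neither pair overlapped. It was lower at -0.79 ± 0.17 in mt-CCs (limma adjusted p = 0.00312) and at -1.03 ± 0.17 with p53 R175H (adjusted p = 0.000929).

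Ankrd37, a small ankyrin repeat protein whose gene is a HIF target, had values of 8.56, 7.52 and 7.89 with p53 R175H, against 9.94, 9.95 and 9.83 with EV. It had 8.76, 8.73 and 8.86 in mt-CCs, against 9.01, 9.47 and 9.19 in fl-CCs. The p53 R175H arrays lay below all other 9. Ankrd37 was lower with p53 R175H at -1.91 ± 0.21 (limma adjusted p = 5.31e-05) and differed by -0.43 ± 0.21 in mt-CCs (adjusted p = 0.148).

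Ero1a, the oxidase that drives disulfide formation in the endoplasmic reticulum, had values of 10.69, 10.22 and 10.25 with p53 R175H, against 11.43, 11.54 and 11.56 with EV. It had 10.94, 10.99 and 11.02 in mt-CCs, against 10.66, 11.59 and 11.05 in fl-CCs. The p53 R175H arrays were below the EV arrays, while fl-CC values ranged widely enough to enclose the mt-CC values. Ero1a was lower with p53 R175H at -1.12 ± 0.19 (limma adjusted p = 0.0015), with all 3 of its probe sets called, and differed by -0.12 ± 0.19 in mt-CCs (adjusted p = 0.716).

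The remaining effectors with p53 R175H were the stress-induced Ndrg1, at -0.78 ± 0.10 (limma adjusted p = 0.000229) with all 5 probe sets called, Ddit4, an inhibitor of mTOR signaling, at -0.62 ± 0.09 (adjusted p = 0.000471), and Mxi1, an antagonist of Myc, at -0.62 ± 0.10 (adjusted p = 0.000928). In mt-CCs these 3 genes differed by -0.15 ± 0.10, -0.01 ± 0.09 and 0.09 ± 0.10, none past the threshold, although 1 of the 5 probe sets of Ndrg1 was lower there (-0.60, adjusted p = 0.0139). Kdm3a, a histone demethylase that removes methyl groups from histone H3, was the exception among the effectors. It was lower in mt-CCs, at -0.43 ± 0.08 (adjusted p = 0.00201), and at -0.24 ± 0.08 with p53 R175H it did not pass (adjusted p = 0.0681).

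The transcripts of the alpha subunits moved in opposite directions in mt-CCs. Hif1a had values of 11.55, 11.67 and 11.67 in mt-CCs, against 10.81, 11.07 and 10.96 in fl-CCs. It had 11.47, 11.31 and 11.15 with p53 R175H, against 11.20, 11.09 and 11.26 with EV. The mt-CC arrays were the highest of the 12, and the p53 R175H and EV arrays overlapped. Hif1a was higher in mt-CCs by 0.68 ± 0.10 (limma adjusted p = 0.000275), with 3 of 4 probe sets called at up to 1.30, and differed by 0.12 ± 0.10 with p53 R175H (adjusted p = 0.49). The Hif1a protein is governed mainly by its stability, which transcript arrays do not measure.

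Epas1, which encodes the other alpha subunit, had values of 7.55, 7.61 and 8.05 in mt-CCs, against 9.07, 9.62 and 9.55 in fl-CCs. It had 8.83, 8.47 and 8.69 with p53 R175H, against 8.43, 8.49 and 8.33 with EV. The mt-CC arrays were the lowest, the fl-CC arrays the highest and the transfected groups between them, overlapping. Epas1 was lower in mt-CCs at -1.68 ± 0.17 (limma adjusted p = 7.72e-06), with both probe sets called, and differed by 0.24 ± 0.17 with p53 R175H (adjusted p = 0.374).

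Of the hydroxylases, Egln1, the main oxygen sensor in most cells, was lower at -0.54 ± 0.11 in mt-CCs (limma adjusted p = 0.00191) and at -0.78 ± 0.11 with p53 R175H (adjusted p = 0.000285). Egln3, the hydroxylase that is itself strongly induced by HIF, had values of 9.62, 9.07 and 8.92 with p53 R175H, against 11.51, 11.41 and 11.34 with EV. It had 11.34, 11.25 and 11.35 in mt-CCs, against 10.85, 10.93 and 10.82 in fl-CCs. The p53 R175H arrays lay more than 1 log2 unit below any other array. Egln3 was lower with p53 R175H at -2.21 ± 0.15, a fold of 0.215 (limma adjusted p = 9.21e-07), and higher in mt-CCs by 0.44 ± 0.15 (adjusted p = 0.0361). The mt-CC call was lost without any 1 of the 6 arrays compared (adjusted p of 0.0584 to 0.0972).

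Most of these genes are known HIF targets, so the letters ACGTG, 1 form of the core of the HIF binding site, were counted on both strands. The count covered the 250 bases before each annotated start (RefSeq, GRCm38.p6), and no other form of the core was counted. The palindrome CACGTG counts once on each strand and is also an E-box, the site of Myc and other factors. Windows were found for 30 of the 33 genes. At least 1 match lay in 23 of 45 windows of these genes (51.1%), where 5444 of 32851 windows of all genes held one (16.6%). The list includes genes chosen as HIF targets, and the windows were not matched for base composition. Windows of the same gene can overlap, so 1 site can count more than once, as it does in Aldoa. By gene, 19 of the 30 held a match, a count not made for all genes. Windows of genes lower with p53 R175H held a match in 15 of 30 cases (50%), and windows of genes that did not pass in 8 of 15 (53.3%). Windows of genes lower in mt-CCs held one in 11 of 19 (57.9%). Among the genes lower with p53 R175H, Car12, Aldoc, Adm, Pfkp, Hk1, Pfkl and Pdk1 held no match in any window. A match is a description of the letters and not an occupied site. The windows below belong to 4 genes that were lower with p53 R175H and hold a match, then to Ldha, which holds the most matches of the list and did not pass with p53 R175H, and last to Car12, which holds none and was lower. All run 5′ to 3′ toward the start on the gene's strand, and capitals mark ACGTG or its complement.
Slc16a3, chr11:120948817-120949066, forward strand: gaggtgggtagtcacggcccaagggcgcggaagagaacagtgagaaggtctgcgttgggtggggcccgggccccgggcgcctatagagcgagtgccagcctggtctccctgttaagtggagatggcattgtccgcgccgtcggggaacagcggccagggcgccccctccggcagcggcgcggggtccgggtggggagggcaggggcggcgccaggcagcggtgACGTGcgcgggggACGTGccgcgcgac
Egln3, chr12:54203875-54204124, reverse strand: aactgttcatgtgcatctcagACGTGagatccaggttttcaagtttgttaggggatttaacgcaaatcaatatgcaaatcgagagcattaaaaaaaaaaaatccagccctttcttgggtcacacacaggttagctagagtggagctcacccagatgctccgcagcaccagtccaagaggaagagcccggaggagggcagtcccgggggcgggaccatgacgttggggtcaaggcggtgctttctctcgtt
Ankrd37, chr8:45999851-46000100, reverse strand: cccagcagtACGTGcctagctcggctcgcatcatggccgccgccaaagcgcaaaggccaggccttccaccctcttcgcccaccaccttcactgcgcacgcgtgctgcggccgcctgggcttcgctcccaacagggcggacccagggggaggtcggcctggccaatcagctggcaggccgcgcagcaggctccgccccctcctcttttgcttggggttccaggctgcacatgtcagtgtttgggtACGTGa
Bnip3, chr7:138909507-138909756, reverse strand: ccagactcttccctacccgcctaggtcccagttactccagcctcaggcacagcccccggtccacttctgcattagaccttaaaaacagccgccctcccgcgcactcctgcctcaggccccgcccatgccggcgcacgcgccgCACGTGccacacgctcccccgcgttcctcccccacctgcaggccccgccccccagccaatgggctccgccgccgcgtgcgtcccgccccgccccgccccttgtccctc
Ldha, chr7:46845554-46845803, forward strand: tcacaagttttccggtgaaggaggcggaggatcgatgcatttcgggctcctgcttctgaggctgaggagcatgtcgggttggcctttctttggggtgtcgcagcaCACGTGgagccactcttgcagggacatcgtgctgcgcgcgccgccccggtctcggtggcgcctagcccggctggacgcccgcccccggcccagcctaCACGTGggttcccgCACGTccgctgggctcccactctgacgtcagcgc
Car12, chr9:66713436-66713685, forward strand: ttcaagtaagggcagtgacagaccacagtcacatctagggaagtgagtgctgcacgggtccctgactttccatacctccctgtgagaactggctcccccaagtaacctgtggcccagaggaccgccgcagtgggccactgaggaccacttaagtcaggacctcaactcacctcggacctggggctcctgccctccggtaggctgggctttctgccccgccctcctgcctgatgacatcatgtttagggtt

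In Slc16a3 both matches lie close to the start, and in Egln3 the single match begins at -229, near the far end. Ankrd37 has a match at each end of the window, and the pair in Bnip3 is a single CACGTG read on both strands. Ldha has 5 matches, 4 of them from 2 copies of CACGTG.

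The vector line itself differed from untransfected fl-CCs in part of the list. In fl-CCs + EV against fl-CCs, 9 of the 33 genes were higher (27.3%, where 7.84% of all genes were higher) and 2 were lower (6.06%, where 7.24% were), with a median of 0.16. The higher genes were Slc2a3, Hk1, Pfkl, Pfkp, Aldoc, Eno2, Slc16a3, Car12 and Egln3, with Car12 at 1.82 ± 0.15 (limma adjusted p = 1.28e-05), Slc16a3 at 1.01 ± 0.17 (adjusted p = 0.00239) and Slc2a3 at no less than 0.04, since its fl-CC arrays were near background. The lower genes were Car9 and Epas1, at -0.99 ± 0.17 (adjusted p = 0.00216). All 3 EV arrays lay above all fl-CC arrays for 15 genes (17.7% of all genes) and below them for 6 (18.1% of all genes). Transfection, the vector and G418 cannot be told apart in this comparison. The count of 9 higher genes became 3 without EV replicate 2, 4 without fl-CC replicate 1 and 5 without EV replicate 1 or EV replicate 3.

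The p53 R175H cells were also set against untransfected fl-CCs, in a comparison added after the values were seen. It shares its arrays with those above and differs also in G418. There 23 of the 33 genes were lower (69.7%, where 8.87% of all genes were lower) and 1, Hif1a, was higher (3.03%, where 9.75% were), with a median of -0.50. By arrays that did not overlap, p53 R175H was below fl-CCs for 23 genes (19.4% of all genes) and above for 1 (18.8% of all genes). The largest reduction was in Car9, at -1.96 ± 0.16 (limma adjusted p = 1.24e-05). Egln3 was lower at -1.66 ± 0.15 (adjusted p = 2.14e-05), Aldoc at -1.67 ± 0.19 (adjusted p = 0.000154) and Slc16a3 at -1.31 ± 0.17 (adjusted p = 0.000375). Pfkp was lower at -1.23 ± 0.19 (adjusted p = 0.00102) and Ankrd37 at -1.23 ± 0.21 (adjusted p = 0.00216). Vegfa at -0.49 ± 0.17 (adjusted p = 0.0841) and Adm at -1.35 ± 0.43 (adjusted p = 0.0562) did not pass. The Hif1a call, at 0.36 ± 0.10 (adjusted p = 0.0378), was lost without fl-CC replicate 1 (adjusted p = 0.128), fl-CC replicate 3 (0.083), EV replicate 1 (0.0527), p53 R175H replicate 1 (0.144) or p53 R175H replicate 2 (0.0893).

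Within groups the genes of the list tended to shift together from array to array. Among p53 R175H arrays, replicate 1 was the highest for 26 of 33 genes (78.8%), where it was the highest for 34.2% of all genes. Among fl-CC arrays, replicate 2 was the highest for 28 genes (84.8%, 31.6% of all genes) and replicate 1 the lowest for 26 (78.8%, 38% of all genes). The median deviation of the list from its group mean was 0.13 in p53 R175H replicate 1, 0.15 in fl-CC replicate 2 and -0.14 in fl-CC replicate 1. The median SD of the 33 genes was 0.16 with p53 R175H and 0.17 in fl-CCs, above 0.11 and 0.12 for all genes, and 0.07 in both mt-CCs and fl-CCs + EV, below 0.13 and 0.11 for all genes. Leaving out p53 R175H replicate 1 left 20 genes lower with p53 R175H against EV, and over all 12 arrays left out in turn the count stayed between 19 and 22.

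Further genes of the same pathways came from a separate list, of which 82 of 91 were measured. Among 28 other hypoxia response genes, 15 were lower with p53 R175H (53.6%, against 12.1% of all genes) and 3 higher (10.7%, against 13%), with a median of -0.33. In mt-CCs 9 were lower (32.1%, against 17.7% of all genes) and 6 higher (21.4%, against 18.3%), with a median of -0.05. The collagen prolyl hydroxylase subunit P4ha2 averaged 7.35 with p53 R175H and 9.64 with EV, a difference of -2.29 ± 0.22 (limma adjusted p = 1.68e-05). The hormone gene Stc2 and the mitochondrial adenylate kinase Ak4 were lower as well, at -1.68 ± 0.25 (adjusted p = 0.000478) and -1.61 ± 0.13 (adjusted p = 4.64e-06). The nuclear receptor gene Rora, at 0.96 ± 0.19 (adjusted p = 0.00364), Angptl4, an inhibitor of lipoprotein lipase, at 0.54 ± 0.13 (adjusted p = 0.00997), and Rbpms, which encodes an RNA-binding protein, at 0.27 ± 0.08 (adjusted p = 0.0341), were the 3 that were higher. In mt-CCs Stc2 and P4ha2 were higher, by 1.81 ± 0.25 (adjusted p = 0.000117) and 1.00 ± 0.22 (adjusted p = 0.00356), and Stc1 was higher by at least 1.63 (adjusted p = 2.09e-06), its fl-CC arrays being near background. The largest reductions there were in Rbpms, at -2.14 ± 0.08, in the transferrin receptor Tfrc, at -1.52 ± 0.08, and in Higd1a, a mitochondrial protein, at -1.05 ± 0.13, with adjusted p of 8.94e-10, 1.53e-08 and 6.95e-05.

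Among 16 other glycolytic genes, 4 were lower (25%, against 12.1% of all genes) and 1 higher (6.25%, against 13%) with p53 R175H, and 4 were lower (25%, against 17.7%) and 5 higher (31.2%, against 18.3%) in mt-CCs. Ldhb, the lactate dehydrogenase subunit that favours pyruvate, averaged 8.15 in mt-CCs and 5.63 in fl-CCs, a difference of 2.52 ± 0.09 (limma adjusted p = 9.66e-10), and 5.68 in both p53 R175H and EV cells. Pgm1, a phosphoglucomutase that links glycogen to glycolysis, was lower in both comparisons, at -0.75 ± 0.13 in mt-CCs (adjusted p = 0.000627) and at -1.24 ± 0.13 with p53 R175H (adjusted p = 3.32e-05). Eno3, the muscle enolase, was higher in mt-CCs by 0.75 ± 0.09 (adjusted p = 3.21e-05) and differed by -0.47 ± 0.09 with p53 R175H (adjusted p = 0.00239), while Pgm2, another phosphoglucomutase, was higher in both, by 0.52 ± 0.11 in mt-CCs (adjusted p = 0.00271) and 0.35 ± 0.11 with p53 R175H (adjusted p = 0.0376). The hexokinase-like Hkdc1 and the transporter Slc2a6 were lower in mt-CCs at -0.85 ± 0.15 (adjusted p = 0.000726) and -0.51 ± 0.14 (adjusted p = 0.0169), and Pfkfb2, a paralog of Pfkfb3, was lower with p53 R175H at -0.52 ± 0.11 (adjusted p = 0.00554). Of 12 other oxygen sensing genes, 1 was higher (8.33%, against 18.3% of all genes) and 2 lower (16.7%, against 17.7%) in mt-CCs, and 1 was lower with p53 R175H (8.33%, against 12.1%), none of these shares above that of all genes. Hif1an, the asparagine hydroxylase that blocks HIF activity, was lower in mt-CCs at -0.87 ± 0.12 (adjusted p = 8.78e-05), as was Cul2, the cullin of the von Hippel-Lindau ubiquitin ligase, at -0.46 ± 0.09 (adjusted p = 0.00154), and the hydroxylase gene Egln2 was higher by 0.54 ± 0.09 (adjusted p = 0.000427). Hif3a, which encodes a HIF subunit that can act as an inhibitor, was the gene lower with p53 R175H, at -0.53 ± 0.16 (adjusted p = 0.0362).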

How the data were processed

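The deposited values are log2 probe set intensities on Affymetrix mouse genome arrays, which the authors background-corrected, normalized and summarised by RMA. Of 45101 probe sets, 64 control probe sets were left out, and no column of other values was present (0). Groups came from the sample labels. Probe sets were fitted with limma 3.58.1 in R 4.3.3, with group means over all 12 arrays, empirical Bayes variances and Benjamini-Hochberg adjustment over 45037 probe sets, and a call needed an adjusted p of at most 0.05. Differences are given ± SE, as the first-named group minus the second. The study's methods used Partek at the same threshold, without naming the arrays fitted.

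Of several probe sets for a gene, the one brightest on average over all arrays stood for it, among the 34945 whose platform annotation gave 1 symbol (932 had several, 9160 none). Depth has no meaning for arrays, so the 3 arrays per group limit the precision. Log2 values under 5 were taken as near background, and where all arrays of the dimmer group were under 5 a difference is given as at least the brighter mean minus the higher of 5 and the dimmer mean.

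Values in every array are given for 20 genes, 14 with a called difference of at least 1 in mt-CCs against fl-CCs, p53 R175H against EV or EV against fl-CCs, and 9 chosen by name, of which 3 are also among the 14. Of the other lists the called genes with the 3 largest rises and falls are named. The genes, the lists and the 14 alternatives were chosen with earlier results of these data known. The scripts were tested on simulated data. Promoter sequences are RefSeq's. Columns of the authors' own comparisons were not used. A further allele that all lines share is not reported here.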

Additional observations from a re-analysis of the deposited data

Results flagged for a closer look

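For 19 of the 33 genes the mt-CC minus fl-CC difference and the p53 R175H minus EV difference were themselves unequal by limma's test, and the values here are the first minus the second on the log2 scale. A positive value means that mt-CCs stood higher, relative to fl-CCs, than p53 R175H cells did relative to EV.

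In glucose entry and glycolysis the glucose transporter Slc2a3 had a fitted value of 3.47 (adjusted p = 1.02e-05). Its fl-CC and p53 R175H arrays were near background, so the value is at least 1.18 with those means set to 5, and it was 0.27 (adjusted p = 0.275) without _x_at and _s_at probe sets. The enolase Eno2 had 2.54, the aldolase Aldoc 2.52, the phosphofructokinase Pfkp 2.12 and the hexokinase Hk1 1.15. The phosphofructokinases Pfkl and Pfkm were at 0.75 and 0.55. The bifunctional enzymes Pfkfb4 and Pfkfb3 had 1.003 (adjusted p = 0.0174) and -1.21 (adjusted p = 0.00361), so this pair of paralogs was unequal in opposite senses.

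The carbonic anhydrases also took opposite signs, with -3.52 for Car9 (adjusted p = 2.37e-07), whose mt-CC mean of 5.01 was at the near-background level, and 2.12 for Car12 (adjusted p = 1.2e-05). The EV line itself differed from fl-CCs in both genes, by -2.12 for Car9 and 1.82 for Car12. Against fl-CCs the p53 R175H cells were lower in both, at -1.96 and -0.69. Among the effectors of the hypoxia response Ankrd37 had 1.48, the oxidase Ero1a 1.0045, the Myc antagonist Mxi1 0.71, Ndrg1 0.62 and the mTOR inhibitor Ddit4 0.61. In the sensing arm Egln3 had 2.66 (adjusted p = 1.25e-06) and Hif1a 0.56 (adjusted p = 0.0133), whereas Epas1 had -1.92 (adjusted p = 6.46e-05). The lines of origin differ between the 2 comparisons, and the EV line differed from fl-CCs in part of these genes. The part of either in these values cannot be told apart from that of the mutant p53.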

How the results depend on the processing

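Alternatives without a fold limit kept 12 of 20 calls in mt-CCs against fl-CCs, 17 of 21 in p53 R175H against EV, 4 of 11 in EV against fl-CCs, 18 of 19 for the difference of the differences and 19 of 24 in p53 R175H against fl-CCs. When a call also needed a log2 difference of at least 1, mt-CCs had 2 higher and 5 lower genes. In p53 R175H against EV 10 were then lower, and in EV against fl-CCs 3 were higher and 1 lower. The difference of the differences had 10 higher and 3 lower (Car9, Epas1 and Pfkfb3), and p53 R175H against fl-CCs had 0 higher and 6 lower. The counts with this limit were not made for all genes, so no share stands beside them. The 9 genes higher with EV became 5 both with only these groups in the fit and in the unmoderated model. The single gene higher with p53 R175H than in fl-CCs became 0 with only these groups, with the mean of a gene's probe sets and with the replicate block. Without _x_at and _s_at probe sets the EV minus fl-CC difference of Slc2a3 changed sign, to -0.0199 (adjusted p = 0.949). The cause was not tested.

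With 1 array left out at a time, the genes higher in mt-CCs numbered 4 to 6 and the lower ones 10 to 15. In p53 R175H against EV they numbered 0 and 19 to 22, in EV against fl-CCs 3 to 9 and 2, for the difference of the differences 16 and 3 to 4, and in p53 R175H against fl-CCs 0 to 1 and 19 to 24. Calls lost in at least 1 such fit were Egln3, Hk1, Ldha, Pgam1, Slc2a1 and Vegfa in mt-CCs, Pdk1 and Pfkm in p53 R175H against EV, Aldoc, Egln3, Eno2, Hk1, Pfkl and Pfkp in EV against fl-CCs, and Aldoa, Ero1a, Hif1a, Hk2 and Ldha in p53 R175H against fl-CCs.

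Same-numbered arrays of the compared groups had residual correlations of -0.0897 to 0.0357. These values show no pairing by number, and with 3 arrays per group they cannot exclude one. With the replicate block 6 genes were higher and 14 lower in mt-CCs, 0 and 21 in p53 R175H against EV, 6 and 2 in EV against fl-CCs, 16 and 3 for the difference of the differences, and 0 and 22 in p53 R175H against fl-CCs. Over all genes the block left 6266 calls of 6543 in mt-CCs and 4198 of 4560 with p53 R175H. Signals near background limit Slc2a3 and Car9.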

Other observations

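Routes that branch from glycolysis were read from lists of the pentose phosphate pathway, the pyruvate dehydrogenase gate and glycogen turnover. Of 11 measured genes of the pyruvate dehydrogenase gate, 3 were higher (27.3%, against 18.3% of all genes) and 2 lower (18.2%, against 17.7%) in mt-CCs than in fl-CCs, and 1 was higher (9.09%, against 13%) and 6 lower (54.5%, against 12.1%) with p53 R175H than with EV. Pdk4, a kinase that inactivates pyruvate dehydrogenase, was higher in mt-CCs by 1.84 ± 0.14 (SE, limma adjusted p = 5.83e-07) and differed by -1.86 ± 0.14 with p53 R175H (adjusted p = 2.26e-06). Pdp2, a phosphatase that reactivates the enzyme, was lower in both, at -1.25 ± 0.10 in mt-CCs (adjusted p = 1.1e-06) and -0.95 ± 0.10 with p53 R175H (adjusted p = 4.13e-05). In mt-CCs the kinase Pdk3 differed by 0.73 ± 0.10 (adjusted p = 0.000162), and the subunits Pdhb and Dlat by 0.43 ± 0.08 (adjusted p = 0.00165) and -0.47 ± 0.09 (adjusted p = 0.00179). With p53 R175H the phosphatase Pdp1 differed by -0.58 ± 0.09 (adjusted p = 0.000533) and the subunit Pdhx by 0.36 ± 0.12 (adjusted p = 0.0478).

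In the pentose phosphate pathway 1 of 8 measured genes was higher (12.5%, against 18.3% of all genes) and 3 lower (37.5%, against 17.7%) in mt-CCs. With p53 R175H 0 were higher (against 13% of all genes) and 3 lower (37.5%, against 12.1%). H6pd, the glucose dehydrogenase of the endoplasmic reticulum, differed by 0.94 ± 0.09 in mt-CCs (limma adjusted p = 3.58e-06), Tigar, a p53-inducible phosphatase of fructose 2,6-bisphosphate, by -1.02 ± 0.09 (adjusted p = 3.5e-06) and the transaldolase Taldo1 by -0.85 ± 0.13 (adjusted p = 0.000234). The epimerase Rpe was lower in both, at -0.36 ± 0.11 in mt-CCs (adjusted p = 0.0289) and -0.37 ± 0.11 with p53 R175H (adjusted p = 0.0379), and with p53 R175H the isomerase Rpia differed by -0.54 ± 0.09 (adjusted p = 0.000876) and the dehydrogenase Pgd by -0.29 ± 0.08 (adjusted p = 0.0213).

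Among 7 glycogen genes 1 was higher and 1 lower in mt-CCs (14.3% each, against 18.3% and 17.7% of all genes), and 1 was higher (14.3%, against 13%) and 4 lower (57.1%, against 12.1%) with p53 R175H. The liver glycogen phosphorylase Pygl was higher in mt-CCs by at least 3.34 (adjusted p = 5.22e-08), its fl-CC arrays being near background, and the brain-type Pygb was lower at -0.88 ± 0.09 (adjusted p = 7.12e-06) and differed by 0.49 ± 0.09 with p53 R175H (adjusted p = 0.00163). The phosphatase targeting subunits Ppp1r3b and Ppp1r3c, which promote glycogen synthesis, were lower with p53 R175H, at -1.50 ± 0.13 (adjusted p = 9.64e-06) and -1.44 ± 0.23 (adjusted p = 0.000755), and the branching enzyme Gbe1 was lower at -0.71 ± 0.18 (adjusted p = 0.0153).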
